A study of Mus musculus with 10 samples.

Results

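The genes described here are 4 chemokines and 6 chemokine receptors of T cells, found by their symbols in the gene column of the deposited count tables. They are Ccl3, Ccl4, Ccl5 and Xcl1 among the chemokines and Cxcr3, Cxcr6, Ccr2, Ccr4, Ccr8 and Cxcr4 among the receptors. All 10 were present, of 31053 features. They were measured in T cells from colorectal carcinoma of mice, by a droplet assay that counts transcripts per cell from their 5′ ends, in 5 libraries, and T cell receptor (TCR) chains were sequenced in 5 matched libraries. Mice of the combination group (2 RNA libraries) received S. chamaejasme (Stellera chamaejasme, a flowering plant) with an antibody against PD-1, an inhibitory receptor of T cells. The S. chamaejasme group (1 RNA library) received the plant without the antibody, and the untreated group (2 RNA libraries) received neither. All groups share the tumour type, and no group received the antibody alone. The sources used here give no strain, age, sex, dose or batch, so treatment cannot be told apart from any batch shared by a group. The labels do not say whether replicates came from separate animals, so p-values measure only the spread between these samples.

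Chemokines are small secreted proteins that direct cell movement through G protein-coupled receptors on the responding cell. Ccl3, Ccl4 and Ccl5 are released by activated cytotoxic lymphocytes, while Xcl1 is the ligand of Xcr1 on cross-presenting dendritic cells. On the receptor side, Cxcr3 binds the interferon-induced Cxcl9 and Cxcl10, Cxcr6 binds Cxcl16, Ccr2 binds Ccl2, Ccr4 binds Ccl17 and Ccl22, Ccr8 binds Ccl1, and Cxcr4 binds Cxcl12. These receptors are known from tumours as marks of effector cells (Cxcr3, Cxcr6) and of regulatory T cells (Ccr4, Ccr8).

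On the GRCm38 assembly the genes lie in a few groups, by the GENCODE annotation. Ccl5 (chr11:83525778-83530518, minus strand), Ccl3 (chr11:83647844-83649355, minus strand) and Ccl4 (chr11:83662584-83664683, plus strand) lie on chromosome 11, with Ccl3 and Ccl4 the closest pair. Ccr4 (chr9:114490316-114504916, minus strand), Ccr8 (chr9:120092114-120094906, plus strand), Cxcr6 (chr9:123806475-123811760, plus strand) and Ccr2 (chr9:124101950-124113557, plus strand) lie on chromosome 9. Cxcr4 (chr1:128588199-128592293, minus strand) and Xcl1 (chr1:164931644-164935527, minus strand) are on chromosome 1, and Cxcr3 (chrX:101731535-101734269, minus strand) is on the X chromosome.

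The 250 bases upstream of the transcription start, from RefSeq (GRCm38.p6), are printed for a pair of chemokine genes that were high in CD8 cells (Ccl3, Xcl1), for the receptor gene that differed most with clone size (Cxcr6) and for the gene that stood highest in regulatory cells relative to other T cells (Ccr8). RefSeq windows were found for 8 of the 10 genes; Ccl4 and Ccl5 are named only. The windows are Ccl3 at chr11:83649379-83649628 (minus strand), Xcl1 at chr1:164935523-164935772 (minus strand), Cxcr6 at chr9:123806227-123806476 (plus strand) and Ccr8 at chr9:120091883-120092132 (plus strand), each written 5′ to 3′ on the gene's strand. Capitals mark matches, on either strand, to motif letters of T cell transcription factors: GGAAA for NFAT, TCACACC for T-box factors, AGATAA for the GATA family, TGTGGTT for Runx and TGANTCA for AP-1.
Ccl3: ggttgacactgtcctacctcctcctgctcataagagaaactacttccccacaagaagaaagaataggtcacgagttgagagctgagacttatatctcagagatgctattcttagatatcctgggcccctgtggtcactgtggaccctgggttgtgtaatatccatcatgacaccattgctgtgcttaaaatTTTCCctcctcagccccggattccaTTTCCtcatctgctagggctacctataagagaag
Xcl1: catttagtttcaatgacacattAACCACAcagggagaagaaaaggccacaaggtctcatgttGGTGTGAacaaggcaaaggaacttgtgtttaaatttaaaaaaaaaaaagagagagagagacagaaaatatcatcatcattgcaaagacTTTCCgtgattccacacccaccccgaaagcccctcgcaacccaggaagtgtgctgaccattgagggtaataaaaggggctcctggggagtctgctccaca
Cxcr6: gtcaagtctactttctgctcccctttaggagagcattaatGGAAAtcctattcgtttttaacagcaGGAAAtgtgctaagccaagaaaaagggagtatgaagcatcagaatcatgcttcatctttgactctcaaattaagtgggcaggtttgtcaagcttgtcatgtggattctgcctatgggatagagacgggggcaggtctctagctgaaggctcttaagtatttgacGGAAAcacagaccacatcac
Ccr8: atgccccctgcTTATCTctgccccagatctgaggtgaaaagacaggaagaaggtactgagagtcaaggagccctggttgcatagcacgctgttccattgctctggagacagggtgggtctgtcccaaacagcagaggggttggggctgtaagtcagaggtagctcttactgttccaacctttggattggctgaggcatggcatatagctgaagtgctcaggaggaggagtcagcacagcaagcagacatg
The Ccl3 window held 2 NFAT matches and the Cxcr6 window 3, the Xcl1 window held 1 match each to NFAT, T-box and Runx, and the Ccr8 window held 1 GATA match. None of these matches overlap each other. Among all 32851 RefSeq windows of this length, 55.6% held the NFAT letters, 9.99% the GATA letters, 6.75% the AP-1 letters, 4.40% the Runx letters and 3.33% the T-box letters, so an NFAT match is common. Of the windows not printed, Ccr2 held 3 NFAT matches and 1 GATA match, Cxcr4 held 1 NFAT match, Ccr4 held an AP-1 match adjoining an NFAT match, and Cxcr3 held none of the 5 motifs. The Ccr4 window lies wholly within the GENCODE gene span, and most of the Ccr2 window lies within its own. The Cxcr3 window overlaps its gene span in part. The Xcl1, Cxcr6 and Ccr8 windows overlap theirs by a few bases at the 3′ end. A match describes these letters and not a bound site.

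The RNA tables held 22590 barcodes, of which 20239 cells were kept: 4876 and 4570 in combination replicates 1 and 2, 5044 in the S. chamaejasme library, and 2244 and 3505 in untreated replicates 1 and 2. The median depth per cell was 4905.5 and 4830.5 UMIs (unique molecules counted) in combination replicates 1 and 2, 3403.5 in the S. chamaejasme library and 3522 and 3915 in untreated replicates 1 and 2. At least 1 of Cd3d, Cd3e, Cd3g and Trac was counted in 98.3% to 99.1% of the cells of each library, and library pairs shared 14 to 54 barcode sequences. Cells fell into 14 clusters, built without the 10 genes. Of these, 10 clusters with 18267 cells were named from marker genes as CD8 T-like (3139 cells, clusters 5 and 7), CD4 conventional T-like (12829 cells, 6 clusters) and regulatory T-like (Treg-like, 2299 cells, clusters 6 and 10). Levels are given as CPM, a gene's UMIs scaled to the total UMIs of the summed cells of a class or cluster in 1 library. In such sums, fewer cells of a kind and less RNA per cell cannot be told apart.

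The 4 chemokine genes were highest in a pair of clusters. Cluster 7, the CD8 T-like cluster led by Gzma, Gzmk, Gzmb and Ifng (1395 cells), held the highest Ccl4 and Ccl5, and cluster 9, which stayed unnamed and was led by Fcer1g, Tyrobp, Cd160 and Trgv2 (822 cells), held the highest Ccl3 and Xcl1. Ccl5 averaged 15762 ± 3002 CPM in cluster 7 and 7157 ± 1266 CPM in cluster 9 (SD, n = 5 libraries). In the other CD8 T-like cluster, cluster 5 (led by Ly6c2, Plac8 and Eomes, 1744 cells), Ccl5 averaged 410.3 ± 156 CPM. Ccl5 was present in nearly every cell of cluster 7, with a UMI in 97.6% of cells (96.6% thinned), against 3.19% of cells (1.57% thinned) in cluster 0, a CD4 cluster taken as background; thinned means that each cell was reduced to 2000 UMIs, which left out 1735 of the 20239 cells as too shallow (295 and 229 in the combination, 726 with S. chamaejasme, 220 and 265 in untreated libraries). Median depths were 4150 UMIs in cluster 7 and 4780.5 UMIs in cluster 0.

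Ccl4 averaged 1081 ± 162 CPM in cluster 7 and 612 ± 256 CPM in cluster 9, and 58.0% of the cells (47.4% thinned) in cluster 7 had a UMI of it, against 0.322% (0.262% thinned) in cluster 0. Ccl3 averaged 356 ± 190.5 CPM in cluster 9, with libraries from 119 to 562 CPM, and 114 ± 39.7 CPM in cluster 7, so the ranges of these clusters overlapped. Xcl1 averaged 1650.2 ± 571 CPM in cluster 9 against 137 ± 37.7 CPM in cluster 7, with no overlap between libraries, and its UMIs were found in 76.8% of cells of cluster 9 (70.9% thinned) and 19.2% of cluster 7 (11.8% thinned). In cluster 9 the Xcl1 level was 1194 and 1565 CPM in combination replicates 1 and 2, 1262 CPM with S. chamaejasme, and 1613 and 2618 CPM in untreated replicates 1 and 2. Both untreated libraries lay above both combination libraries there, a difference that was not tested. Of the CD4 clusters, cluster 4 (led by Il17a, Il22 and Il17f, 1890 cells) held the most of these genes, with Ccl5 at 489 ± 262 CPM, Ccl4 at 79.0 ± 72.4 CPM and Xcl1 at 47.7 ± 17.8 CPM.

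The receptor genes were spread over different clusters. Cxcr6 was highest in the gamma delta T-like cluster 13 (197 cells), at 893 ± 308 CPM, and next in CD4 cluster 4 at 375 ± 35.2 CPM and CD8 cluster 7 at 275 ± 51.9 CPM. A Cxcr6 UMI was found in 92.9% (76.6% thinned) of cluster 13, 54.3% (40.5% thinned) of cluster 4 and 49.7% (33.0% thinned) of cluster 7. In Treg-like cluster 10 (led by Lrrc32 and Gpr83, 686 cells) no Cxcr6 UMI was counted in any library, and a count of 0 allows up to 3 counts, or 1.06 CPM over the 5 libraries. Ccr2 followed a similar order at the top, with 314 ± 74.0 CPM in cluster 13 and 196 ± 44.7 CPM in cluster 4, but Treg-like cluster 6 (led by Penk, Tnfrsf9, Klrg1 and Il10, 1613 cells) came next at 163 ± 35.0 CPM. Cxcr3 was highest in CD8 cluster 7 at 116 ± 33.6 CPM. Its UMIs were seen in 33.2% (20.2% thinned) of cluster 7 and in 15.5% (9.51% thinned) of cluster 4.

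Ccr8 marked Treg-like cluster 6 most, at 426 ± 135 CPM, against 89.4 ± 42.1 CPM in CD4 cluster 4 and 55.0 ± 32.1 CPM in the other Treg-like cluster. Its UMIs were found in 53.3% (44.1% thinned) of cluster 6 and in 0.115% (0.0589% thinned) of CD8 cluster 5, the background. Ccr4 was highest in CD4 cluster 4, at 72.9 ± 23.5 CPM, then in Treg-like cluster 6, at 51.0 ± 10.6 CPM, with overlapping libraries. Cxcr4 averaged 136 ± 24.7 CPM in cluster 6 and 111 ± 13.2 CPM in CD4 cluster 1 (led by Tox2, Tnfsf8 and Il21, 2496 cells), and was lowest in CD8 cluster 7 at 19.7 ± 4.6 CPM. Over the CD8 clusters, Cxcr3 stood at 116 ± 33.6 CPM in cluster 7 against 7.58 ± 2.2 CPM in cluster 5, while Cxcr4 stood at 19.7 ± 4.6 CPM against 64.1 ± 17.6 CPM.

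**Figure D1:**
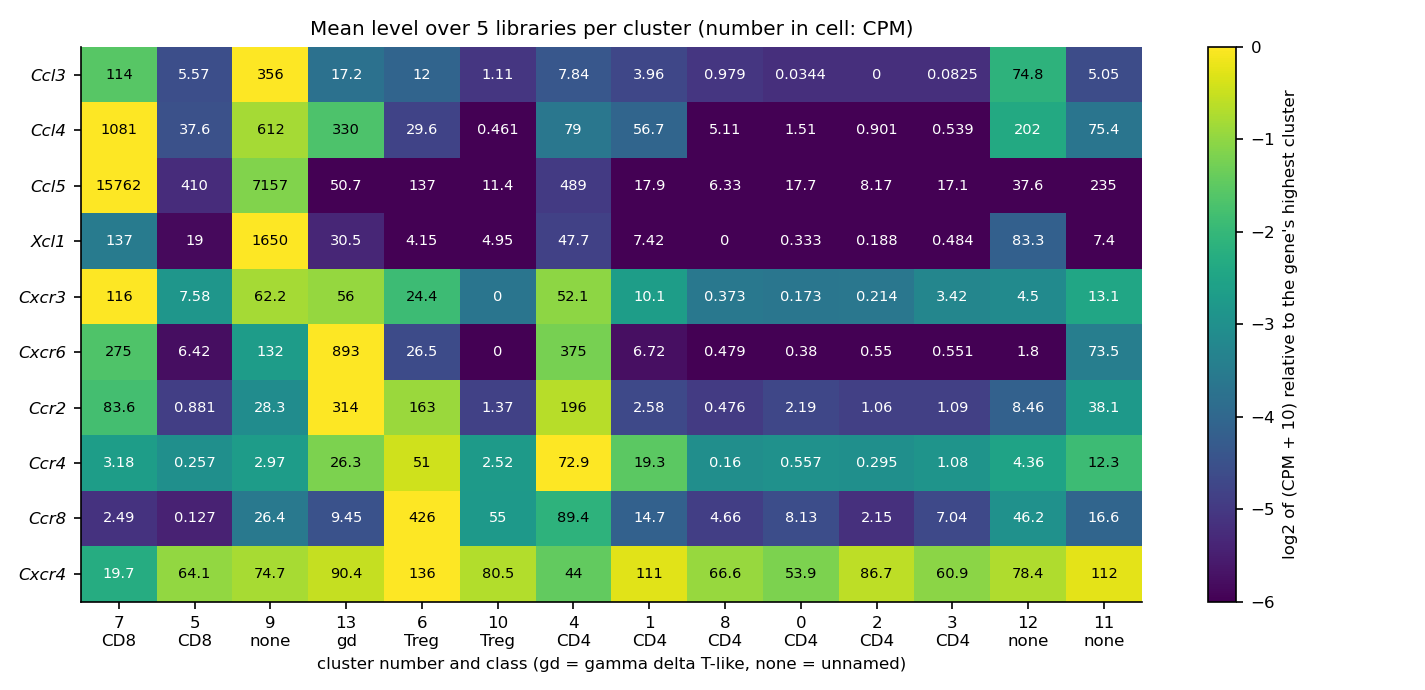
Mean level of each gene (CPM over 5 libraries, printed in each cell) in the 14 clusters; colour is log2(CPM + 10) relative to the gene's highest cluster. Ccl4, Ccl5 and Cxcr3 peaked in cluster 7, Ccl3 and Xcl1 in cluster 9, Cxcr6 and Ccr2 in cluster 13, Ccr4 in cluster 4, and Ccr8 and Cxcr4 in cluster 6.

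Shares of cells holding a pair of genes were read within clusters. After thinning, Ccl4 was found in 76.6% of 154 Ccl3-positive cells, against 43.6% of 1180 Ccl3-negative cells, in cluster 7. The same pair in cluster 9 gave 52.5% of 101 Ccl3-positive cells, against 16.3% of 639 Ccl3-negative cells. For the receptors, Cxcr6 was found in 50.9% of 175 Ccr2-positive cells, against 30.3% of 1159 Ccr2-negative cells, in cluster 7, and in 53.2% of 481 Ccr2-positive cells, against 35.7% of 1286 Ccr2-negative cells, in cluster 4. In Treg-like cluster 6 Ccr4 was found in 5.98% of 619 Ccr8-positive cells, against 9.54% of 786 Ccr8-negative cells. These shares are descriptions over cells of 5 libraries and were not tested.

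The levels in the 3 classes ordered the genes by lineage. Over 5 libraries Ccl5 averaged 6536 ± 2646 CPM in CD8, 99.4 ± 43.0 CPM in Treg-like and 90.0 ± 77.5 CPM in CD4 conventional cells. Ccl4 averaged 464 ± 187 CPM in CD8, 23.8 ± 20.2 CPM in CD4 and 19.8 ± 11.95 CPM in Treg-like cells. For Ccl3 the values were 46.2 ± 9.81 CPM (CD8), 8.86 ± 7.61 CPM (Treg-like) and 1.5 ± 1.61 CPM (CD4), and for Xcl1 67.1 ± 17.8 CPM (CD8), 8.44 ± 3.62 CPM (CD4) and 4.59 ± 4.18 CPM (Treg-like). For each of the 4 chemokines the CD8 libraries lay above all others, while the Treg-like and CD4 ranges overlapped.

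Among receptors, Ccr8 averaged 313 ± 102 CPM in Treg-like cells, 19.0 ± 9.35 CPM in CD4 and 1.05 ± 0.641 CPM in CD8 cells, and Ccr4 averaged 36.3 ± 9.46 CPM in Treg-like, 15.3 ± 5.43 CPM in CD4 and 1.24 ± 0.654 CPM in CD8 cells. No neighbours in these orders overlapped. Ccr2 was highest in Treg-like cells (114 ± 31.6 CPM), with overlapping CD8 (33.4 ± 10.2 CPM) and CD4 (30.6 ± 16.7 CPM) libraries below. Cxcr3 was highest in CD8 cells (50.03 ± 18.3 CPM), with overlapping Treg-like (16.9 ± 7.18 CPM) and CD4 (10.0 ± 3.63 CPM) libraries below. Cxcr6 averaged 122 ± 61.7 CPM in CD8, 63.0 ± 41.1 CPM in CD4 and 19.0 ± 14.5 CPM in Treg-like cells, and both neighbouring pairs overlapped. Cxcr4 averaged 118 ± 19.4 CPM in Treg-like cells, above overlapping CD4 (69.3 ± 11.3 CPM) and CD8 (45.0 ± 13.7 CPM) libraries.

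**Figure D2:**
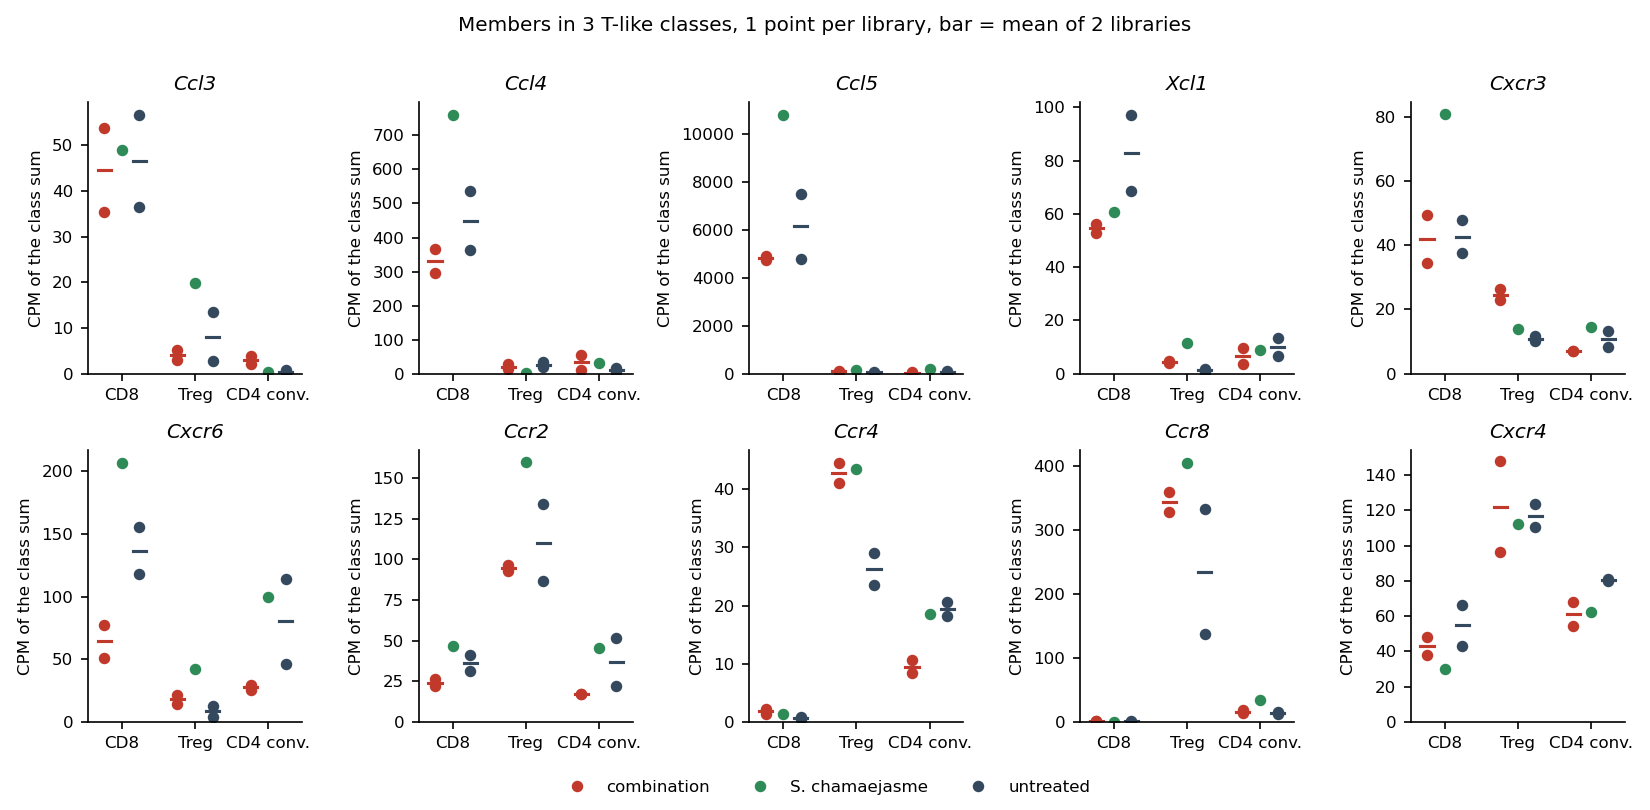
CPM of each of the 10 genes in CD8, CD4 conventional and Treg-like sums, by group; each point is 1 library and the bar is the mean of 2 libraries. CD8 libraries were highest for the 4 chemokines and Cxcr3, and Treg-like libraries for Ccr2, Ccr4, Ccr8 and Cxcr4.

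To test lineage independently of the clusters, cells were gated on coreceptor and Foxp3 UMIs alone: CD8 (Cd8a or Cd8b1 present, Cd4 and Foxp3 absent), CD4 conventional (Cd4 present, the others absent) and Treg (Foxp3 present, Cd8a and Cd8b1 absent). The CD8 gate held 2950 cells of the CD8 T-like class, 424 of the CD4 conventional T-like class and 170 of cluster 9. The CD4 gate held 5211 cells of its own class and 334 Treg-like ones. In the Treg gate 1122 cells were Treg-like and 119 CD4 conventional T-like. Cells in no gate included 7075 of the CD4 conventional T-like class, so the gates were partial and mixed. The gated sums were compared with edgeR with the library as a block. In CD8 against CD4 cells, 9 of the 10 genes tested passed an adjusted p of 0.05, 6 higher and 3 lower, where 27.8% of all genes passed (13.4% higher and 14.4% lower). All 4 chemokines were higher, with a median log2 fold change of 3.05, against 0.01 over all genes. Ccl5 was 3896 and 3890.1 CPM in CD8 cells of the 2 combination libraries, 8739 CPM with S. chamaejasme, and 6608 and 4071 CPM in untreated replicates. In CD4 cells it was 159 and 281 CPM in the combination, 206 CPM with S. chamaejasme, and 93.8 and 21.3 CPM in untreated libraries, far below in every library, and the log2 fold change was 5.28 ± 0.34 (SE, edgeR adjusted p = 9.55e-09).

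Ccl4 was higher by 3.32 ± 0.35 (SE, edgeR adjusted p = 3.06e-06), Ccl3 by 2.77 ± 0.29 and Xcl1 by 2.49 ± 0.21 on the log2 scale. Cxcr3 was higher by 2.03 ± 0.10 (SE, edgeR adjusted p = 4.54e-10) and Cxcr6 by 0.81 ± 0.13 (SE, edgeR adjusted p = 0.000145). Ccr8 was lower in CD8 cells, at 2.2, 1.71, 4.38, 2.34 and 4.13 CPM against 30.3, 34.4, 51.3, 20.5 and 35.6 CPM in CD4 cells of the same libraries (log2 fold change -3.57 ± 0.15, edgeR adjusted p = 9.14e-11). Ccr4 was lower, at a log2 fold change of -3.40 ± 0.21, and so was Cxcr4, at -0.57 ± 0.10. Each of these 9 differences had the same direction in 5 of 5 libraries, and the CPM ranges did not overlap for 7 of them, Cxcr6 and Cxcr4 being the exceptions. How many of all genes had no overlap is not given. Ccr2 did not pass, at -0.33 ± 0.13 (SE, edgeR adjusted p = 0.0688). Without the library block the Cxcr6 and Cxcr4 calls ended (log2 fold changes 0.78 and -0.55).

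In Treg against CD4 cells, 7 of the 9 genes tested passed, 5 higher and 2 lower, where 32.9% of all genes passed (17.4% higher and 15.5% lower); Ccl3 fell below the count filter. The receptors had a median log2 fold change of 1.11, against -0.02 over all genes. Ccr8 stood at 369.8 and 316 CPM in Treg cells of the 2 combination libraries, 403 CPM with S. chamaejasme, and 143 and 432 CPM in untreated replicates, all above the CD4 values given above. Its log2 fold change was 3.15 ± 0.10 (SE, edgeR adjusted p = 2.13e-13). Ccr2 was higher by 1.56 ± 0.11 (SE, edgeR adjusted p = 4.86e-09), Ccr4 by 1.41 ± 0.19 and Cxcr4 by 0.56 ± 0.09, and Cxcr6 was lower, at a log2 fold change of -1.64 ± 0.19 (SE, edgeR adjusted p = 2.36e-06). Cxcr3 was higher by 0.81 ± 0.25 (SE, edgeR adjusted p = 0.017) in 4 of 5 libraries, and Ccl5 lower, at -1.32 ± 0.42 (SE, edgeR adjusted p = 0.023), in 4 of 5. The Cxcr3 and Ccl5 calls ended with DESeq2, without the block and without either combination library, and Ccl5 turned to 0.41 when the classes replaced the gates. Without combination replicates 1 and 2 in turn, Cxcr3 was 0.43 and 0.67 and Ccl5 -1.07 and -0.57.

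Clone size was read from the TCR libraries, so it used no expression value. An expanded clone had at least 2 cells with the same clonotype in a library; cells of clones of 1 cell are called unexpanded. In CD8 T-like cells, expanded clones carried more of 3 receptors and of all 4 chemokines and less Cxcr4: 8 of the 8 genes tested passed, 7 higher and 1 lower, where 20.5% of all genes passed (11.1% higher and 9.33% lower). Ccr4 and Ccr8 were below the filter. The receptors had a median log2 fold change of 1.86 and the chemokines one of 1.55, with 0.00 over all genes. Cxcr6 changed most. It stood at 217 and 405 CPM in combination replicates 1 and 2, 374 CPM with S. chamaejasme, and 379.6 and 374 CPM in untreated replicates 1 and 2 in expanded cells, against 37.6 to 68.1 CPM in unexpanded cells of the 5 libraries (edgeR log2 fold change 2.61 ± 0.12, adjusted p = 1.52e-13). Every expanded value was above every unexpanded value. By clone size, Cxcr6 was 278 to 429 CPM over the libraries in clones of 5 or more cells and 208 to 395 CPM in clones of 2 to 4, and these ranges overlapped; S. chamaejasme held 229 of the 373 cells in clones of 5 or more, and combination replicate 1 held 6.

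Ccr2, the Ccl2 receptor, stood at 65.3 to 118 CPM in expanded and 15.1 to 27.7 CPM in unexpanded CD8 cells, with a log2 fold change of 2.12 ± 0.20 (SE, edgeR adjusted p = 2.05e-08). Ccl5 ranged over 12084 to 19645 CPM in expanded and 3192 to 6048 CPM in unexpanded cells (log2 fold change 1.67 ± 0.09, edgeR adjusted p = 2.24e-12). Cxcr3, Ccl3 and Ccl4 were also higher, at log2 fold changes of 1.60 ± 0.16, 1.61 ± 0.20 and 1.49 ± 0.12. Cxcr4 was the exception in direction, at 7.88 to 27.9 CPM in expanded and 39.8 to 79.2 CPM in unexpanded cells (log2 fold change -1.68 ± 0.21, edgeR adjusted p = 9.27e-07). The ranges of expanded and unexpanded cells did not overlap for any of these 7 genes, and the share of all genes without overlap is not given. Xcl1 overlapped, and its log2 fold change of 0.91 ± 0.26 (SE, edgeR adjusted p = 0.0112) became -0.16 with the coreceptor gates and ended as a call without the block, where it was 0.90. Without combination replicate 2 it was 0.51 and without untreated replicate 2 it was 0.78, and neither passed.

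Where the clones sat went with these differences: cluster 7 held 701 (99.0%) of 708 expanded and 565 (27.0%) of 2091 unexpanded CD8 cells. Within cluster 7 alone, a comparison chosen after seeing the data, 1 of the 8 genes passed, Cxcr6, where 0.757% of all genes passed (0.598% higher). It stood at 229 and 417 CPM in combination replicates 1 and 2, 374 CPM with S. chamaejasme, and 379.6 and 382 CPM in untreated replicates 1 and 2 in expanded cells of cluster 7. In unexpanded cells of that cluster it stood at 174 and 187 CPM in combination replicates 1 and 2, 145 CPM with S. chamaejasme, and 125 and 282 CPM in untreated replicates 1 and 2, below the expanded value of the same library in all 5, although untreated replicate 2 unexpanded cells overlapped the expanded range. The log2 fold change within cluster 7 was 1.03 ± 0.13 (SE, edgeR adjusted p = 6.60e-05). Ccr2 was at 0.41 ± 0.17 (adjusted p = 0.494) and Ccl5 at 0.01 ± 0.06 (adjusted p = 0.995) there, and the other 5 genes lay between -0.32 and 0.08. Depth differed as well, with median UMIs per cell of 4117 in expanded and 5308 in unexpanded CD8 cells. After thinning, a Cxcr6 UMI was found in 41.2% of expanded and 6.69% of unexpanded CD8 cells (60.0% and 12.7% unthinned).

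In CD4 conventional cells, 6 of the 9 genes tested were higher in expanded clones and none was lower, where 29.7% of all genes passed (16.7% higher and 13% lower). Cxcr6 stood at 123 and 124 CPM in combination replicates 1 and 2, 302 CPM with S. chamaejasme, and 305 and 160.1 CPM in untreated replicates 1 and 2 in expanded CD4 cells, against 17.5 to 69.8 CPM in unexpanded ones. Expanded values were all above unexpanded values, at a log2 fold change of 2.25 ± 0.10 (SE, edgeR adjusted p = 4.83e-11). By clone size, Cxcr6 was 25.3 to 484 CPM over the libraries in CD4 clones of 5 or more cells, the lowest from 2 UMIs in 17 cells of combination replicate 2, and 103 to 277 CPM in clones of 2 to 4. The other calls were Ccr2 (2.07 ± 0.11), Ccr4 (1.97 ± 0.16), Cxcr3 (1.91 ± 0.20), Ccl5 (1.72 ± 0.19) and Ccr8 (1.57 ± 0.21), all log2 fold changes with SE. The 6 receptors had a median log2 fold change of 1.94, against -0.01 over all genes. Clusters 4 and 1 held 670 (54.5%) and 542 (44.1%) of the 1230 expanded CD4 cells, but 9.33% and 17.5% of the 10236 unexpanded ones. Within cluster 4 alone, with edgeR, none of 9 genes passed (Cxcr6 0.20 ± 0.08, edgeR adjusted p = 0.51), 2 had an unadjusted p under 0.05, and 0.42% of all genes passed. Within cluster 1 alone none of 3 passed, 1 had an unadjusted p under 0.05 (Ccl5, at -1.58 ± 0.43 with an edgeR adjusted p of 0.0562, opposite in sign to the class), and 1.73% of all genes passed. These comparisons within a cluster were chosen after seeing the data. How many of all genes had an unadjusted p under 0.05 in them is not given. With the coreceptor gates the Ccl5 call ended, at a log2 fold change of 0.33.

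In Treg-like cells, 3 libraries had at least 20 expanded cells and were tested. Of 7 genes tested 1 passed, Ccr8, where 5.28% of all genes passed (2.66% higher and 2.61% lower); the 6 receptors had a median log2 fold change of 0.61, against -0.02 over all genes. Ccr8 stood at 563 and 584 CPM in expanded Treg-like cells of combination replicates 1 and 2 and 562 CPM with S. chamaejasme, against 286, 262 and 259 CPM in unexpanded cells of the same libraries. The log2 fold change was 1.003 ± 0.14 (SE, edgeR adjusted p = 3.06e-05), and the groups did not overlap. Nearly all expanded Treg-like cells (140 of 141) lay in cluster 6, and within cluster 6 alone the Ccr8 fold change was 0.64 ± 0.15 (edgeR adjusted p = 0.0217, chosen after seeing the data, with 1.03% of all genes passing), with unexpanded cells at 412, 343 and 336 CPM. The untreated libraries had 7 and 12 expanded Treg-like cells and were not tested: Ccr8 was 117 and 793 CPM in their expanded cells and 129 and 273 CPM in their unexpanded cells. The call ended with the coreceptor gates, at 0.56.

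**Figure D3:**
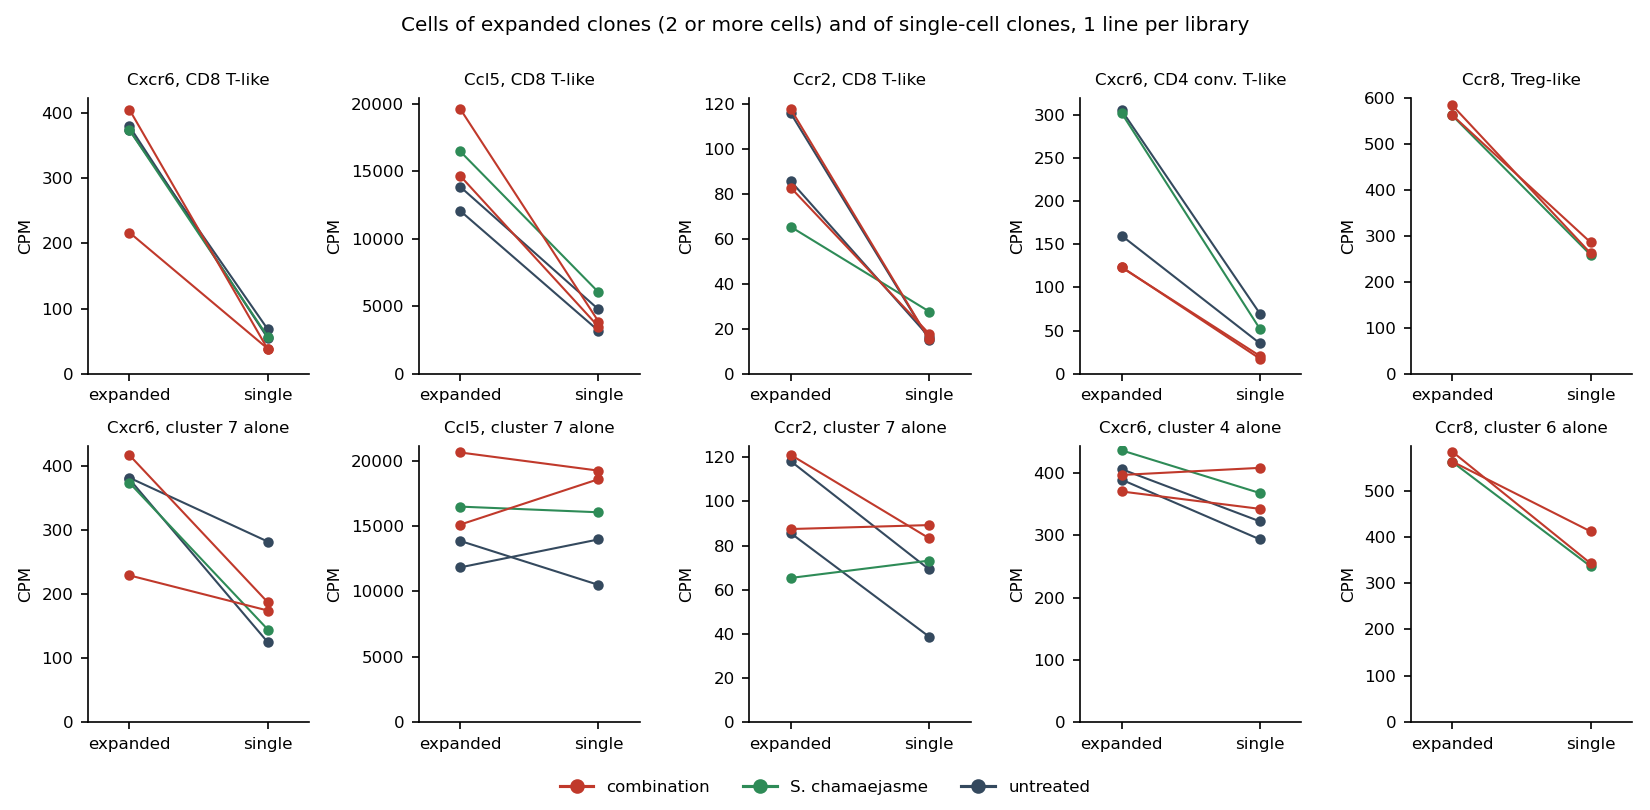
CPM in cells of expanded clones and in cells of clones of 1 cell (labelled single), joined by library, for Cxcr6, Ccl5 and Ccr2 in CD8, Cxcr6 in CD4 and Ccr8 in Treg-like cells; the top row is the class and the bottom row is cluster 7, 7, 7, 4 or 6 alone. Expanded cells were higher in each tested class, while within single clusters Cxcr6 in cluster 7 and Ccr8 in cluster 6 differed past the threshold.

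The treatment groups were compared within each class by edgeR over the summed counts of all 5 libraries, so the 3 contrasts share libraries. The combination and untreated groups have 2 libraries each, so CPM ranges without overlap are common between them without any difference between groups. Their share over all genes is not given. In CD8 T-like cells, 2 of the 8 genes tested were lower in the combination than in untreated libraries and none was higher, where 5.67% of all genes passed (1.73% higher and 3.94% lower); Ccr4 and Ccr8 were below the filter. Cxcr6 stood at 51.1 and 77.6 CPM in combination replicates 1 and 2, 206 CPM with S. chamaejasme, and 155 and 118 CPM in untreated replicates 1 and 2. Both combination values were below both untreated values, and the S. chamaejasme value was the highest. The log2 fold change of the combination over untreated was -1.08 ± 0.17 (SE, edgeR adjusted p = 0.00298). Xcl1 was 52.9 and 56.2 CPM in the combination against 97.1 and 68.4 CPM in untreated libraries, also without overlap, at a log2 fold change of -0.59 ± 0.15 (SE, edgeR adjusted p = 0.0345). That call ended without untreated replicate 1, without either combination replicate, with DESeq2 and without the top cell of each chemokine gene. The other 6 genes lay between -0.57 (Ccr2) and -0.02 (Cxcr3), with Ccl4 at -0.43, Ccl5 at -0.35, Cxcr4 at -0.39 and Ccl3 at -0.04. The median over the 4 chemokines was -0.39 and over the 4 receptors -0.48, against 0.01 over all genes.

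The makeup of the class moved with these values. Cluster 7 made up 26.7% and 29.6% of CD8 T-like cells in combination replicates 1 and 2, 70.3% in the S. chamaejasme library, and 58.5% and 37.3% in untreated replicates 1 and 2. Within cluster 7, Cxcr6 was 194 and 284 CPM in the combination against 260.4 and 326 CPM in untreated libraries, with overlap, and its fold change of -0.39 ± 0.19 did not pass (adjusted p = 0.275). Xcl1 did not pass there either (-0.34 ± 0.20, adjusted p = 0.378). In cluster 5 its fold change had the opposite sign and did not pass (0.80 ± 0.31, adjusted p = 0.187). Ccl5 passed in both CD8 clusters, with opposite signs; 4.13% of all genes passed in cluster 7 and 2.57% in cluster 5. In cluster 7 it was higher, at 19598 and 17378 CPM in combination replicates 1 and 2, 16297 CPM with S. chamaejasme, and 12260.0 and 13277 CPM in untreated replicates 1 and 2, without overlap (log2 fold change 0.43 ± 0.10, edgeR adjusted p = 0.02). In cluster 5 it was 269.8 and 363 CPM in the combination against 677 and 349 CPM in untreated libraries, with overlap, and lower by the test (log2 fold change -0.68 ± 0.17, adjusted p = 0.0222). Cxcr4 was also lower in cluster 5, at 45.1 and 57.4 CPM in the combination against 77.7 and 87.1 CPM in untreated libraries (-0.74 ± 0.17, adjusted p = 0.0106). The part of cluster makeup in the class values was not tested.

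In CD4 conventional cells, 2 of the 10 genes tested were lower in the combination and none was higher, where 6.78% of all genes passed (2.52% higher and 4.26% lower). Ccr4 stood at 8.46 and 10.6 CPM in combination replicates 1 and 2, 18.6 CPM with S. chamaejasme, and 20.7 and 18.2 CPM in untreated replicates 1 and 2. The combination values lay below all others, and the log2 fold change was -1.05 ± 0.15 (SE, edgeR adjusted p = 0.0144). Cxcr6 stood at 29.4 and 25.5 CPM in combination replicates 1 and 2, 99.6 CPM with S. chamaejasme, and 114 and 46.5 CPM in untreated replicates 1 and 2, again with the combination lowest (log2 fold change -1.52 ± 0.32, edgeR adjusted p = 0.036). Untreated replicate 1 was the highest, and without it the Cxcr6 fold change was -0.83; with DESeq2 the adjusted p was 0.0905. Ccr2 (-1.08), Cxcr3 (-0.59), Cxcr4 (-0.42), Ccr8 (0.15), Ccl5 (-0.78) and Xcl1 (-0.51) did not pass. The direction of Ccl5 depended on how CD4 cells were defined. With the coreceptor gates its log2 fold change was 2.04, at 159 and 281 CPM in the combination against 93.8 and 21.3 CPM in untreated libraries. Ccr2 passed with DESeq2, without cluster 8 and in each of the 4 fits without 1 combination or untreated replicate, at -1.56 to -0.46. The receptors had a median of -0.82, against 0.00 over all genes.

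Here too the makeup of the class moved with the values. Cluster 4 made up 7.05% and 6.90% of CD4 cells in combination replicates 1 and 2, 24.8% in the S. chamaejasme library, and 30.6% and 12.6% in untreated replicates 1 and 2. Cluster 8 (led by Plaur, Bbc3, AY036118 and Lars2) made up 1.20% and 0.794% of CD4 cells in the combination, 0.416% with S. chamaejasme and 23.2% and 40.5% in untreated libraries. It averaged 0.479 CPM of Cxcr6 and 0.16 CPM of Ccr4. The part of this makeup in the CD4 class values was not tested. Without cluster 8, a choice made after seeing the data, 4 of 10 genes were lower, where 8.96% of all genes passed (5.36% lower): Cxcr6 (-1.92), Ccr4 (-1.51), Ccr2 (-1.48) and Cxcr3 (-1.01). Within cluster 4 alone, Cxcr6 was 415 and 369 CPM in the combination against 360.5 and 326 CPM in untreated libraries and Ccr4 was 60.4 and 82.2 CPM in the combination against 55.1 and 110.1 CPM in untreated libraries. None of 10 genes passed there with edgeR, 4 had an unadjusted p under 0.05 and 0.784% of all genes passed, with log2 fold changes of 0.12 ± 0.16 for Cxcr6 and -0.28 ± 0.31 for Ccr4 (edgeR adjusted p = 0.779 and 0.723). In cluster 1 alone none of 9 genes passed, 4 had an unadjusted p under 0.05 and 1.08% of all genes passed; Cxcr6 was at 0.98 ± 0.73 (adjusted p = 0.488), and Ccr8 was at 1.41 ± 0.30 (adjusted p = 0.0575). In cluster 0 alone none of 3 genes passed with edgeR, 1 had an unadjusted p under 0.05 and 3.47% of all genes passed. How many of all genes had an unadjusted p under 0.05 in single clusters is not given. In cluster 2 alone 1 of 2 genes was lower, Cxcr4 (-0.80 ± 0.17, adjusted p = 0.00818), where 2.44% of all genes passed (1.75% lower). In cluster 3 alone 1 of 3 genes was lower, Ccl5 (-2.91 ± 0.65, adjusted p = 0.0113), where 0.765% of all genes passed (0.459% lower). It rested on 9 and 8 Ccl5 UMIs in the combination and 6 and 5 UMIs in untreated libraries, and Ccl5 had the opposite sign in clusters 1 (0.87 ± 0.32) and 4 (0.85 ± 0.28), where it did not pass.

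Chemokine counts in CD4 sums rested on few cells. Ccl4 in combination replicate 1 was 54.8 CPM against 12.2 CPM in replicate 2, and 1 cell held 874 of its 900 Ccl4 UMIs, with 13 cells positive. The same library had 65 Ccl3 UMIs, of which 1 cell held 56. The log2 fold changes of 3.11 ± 0.84 for Ccl3 (adjusted p = 0.0654) and 1.90 ± 0.79 for Ccl4 (adjusted p = 0.171) did not pass. Both passed without combination replicate 2, at 3.43 and 2.57, and Ccl4 was 0.37 without combination replicate 1. Untreated replicate 2 had no Ccl3 UMI in CD4 cells, so fits against it alone give no bound.

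In Treg-like cells none of the 10 genes tested passed with edgeR between the combination and untreated libraries, where 2.33% of all genes passed (0.978% higher and 1.35% lower). DESeq2 called 0 and gave 5 no adjusted p. With edgeR 2 genes had an unadjusted p under 0.05, as did 1679 of all 8892 genes tested. Cxcr3 was 22.8 and 26.3 CPM in the combination against 11.7 and 10.1 CPM in untreated libraries, without overlap, at a log2 fold change of 1.13 ± 0.31 (SE, edgeR adjusted p = 0.0655). Ccr4 was 41.1 and 44.5 CPM in the combination against 29.1 and 23.5 CPM in untreated libraries, also without overlap (0.68 ± 0.22, edgeR adjusted p = 0.111). Ccr8 was 359.9 and 329 CPM in the combination against 138 and 333 CPM in untreated libraries, with overlap and with untreated replicate 1 lowest (0.38 ± 0.25, edgeR adjusted p = 0.447). The receptors had a median of 0.53, against 0.00 over all genes.

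**Figure D4:**
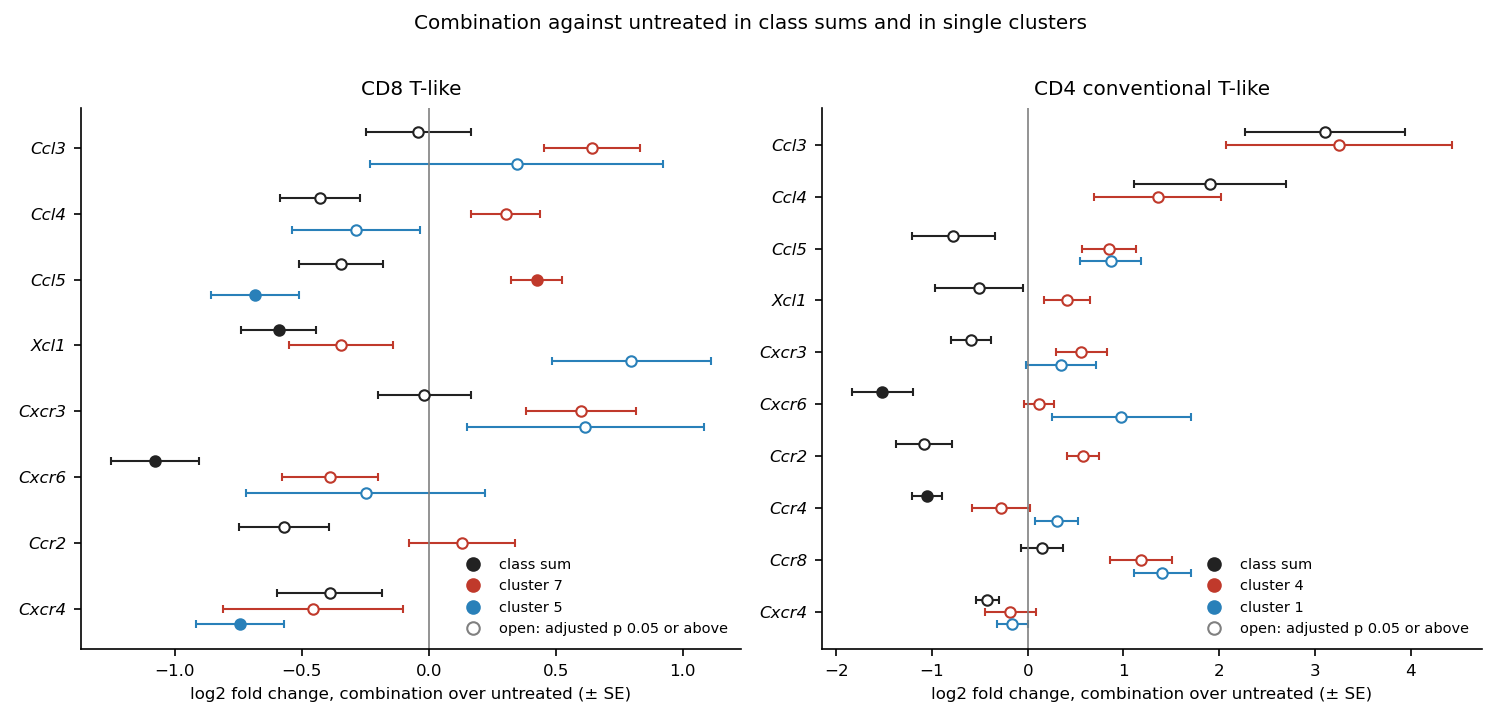
Log2 fold change of the combination over untreated libraries (± SE) in CD8 cells (class sum, cluster 7, cluster 5) and CD4 cells (class sum, cluster 4, cluster 1); filled points passed an adjusted p of 0.05. Genes under the count filter, and Ccl3, Ccl4 and Xcl1 in cluster 1, where a group held 3 or fewer UMIs, are not drawn. Filled points are Cxcr6 and Xcl1 (class), Ccl5 (clusters 7 and 5, opposite in sign) and Cxcr4 (cluster 5) in CD8, and Cxcr6 and Ccr4 (class) in CD4.

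Whether the combination effect differed between classes was tested as an interaction. Between CD8 and CD4 cells, 2 of the 10 genes passed, where 0.553% of all genes passed (0.281% higher and 0.272% lower): Ccl3 (-3.12 ± 0.65, edgeR adjusted p = 0.0144) and Ccl4 (-2.27 ± 0.48, edgeR adjusted p = 0.0157), both as the CD8 minus the CD4 log2 fold change. Without the top cell of each chemokine gene in each sum, a choice made after seeing the data, these became -1.13 and 0.39 and neither passed. Ccl4 was -0.74 without combination replicate 1 and -2.28 without S. chamaejasme, which both ended the call, and -3.51 without untreated replicate 1. Ccl3 was -2.08 without untreated replicate 2 and -7.46 without untreated replicate 1, where the remaining untreated CD4 sum held no Ccl3 UMI. Between Treg-like and CD4 cells, 1 of the 10 passed, where 0.451% of all genes passed (0.386% higher and 0.0644% lower). This was Ccr4, whose Treg-like minus CD4 difference was 1.72 ± 0.26 (SE, edgeR adjusted p = 0.00639): it was 41.1 and 44.5 CPM in the combination against 29.1 and 23.5 CPM in untreated libraries for Treg-like cells, and 8.46 and 10.6 CPM in the combination against 20.7 and 18.2 CPM in untreated libraries for CD4 cells. Cxcr6 (1.97 ± 0.44, adjusted p = 0.0635) and Cxcr3 (1.63 ± 0.35, adjusted p = 0.0558) did not pass.

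The single S. chamaejasme library was compared with untreated libraries in the same fits. A single library has no spread of its own: the spread is borrowed from the other groups, and the library is assumed to vary like them. With edgeR none of the 8 genes tested passed in CD8 cells (3.1% of all genes did, 1.4% higher and 1.7% lower). Of the 8, 6 had an unadjusted p under 0.05, as did 1930 of all 9588 genes tested. None of 10 passed in CD4 cells (1.76% of all genes did, 0.698% higher and 1.06% lower). There 3 had an unadjusted p under 0.05, as did 2620 of all 11310 genes. DESeq2 called 1 gene in each, Ccl5 in CD8 and Ccr8 in CD4 cells. Ccl5 stood at 10777 CPM in CD8 cells with S. chamaejasme, against 7510.2 and 4780.4 CPM in untreated replicates (0.70 ± 0.20, edgeR adjusted p = 0.0724). Ccr8 stood at 35.0 CPM in CD4 cells, against 11.9 and 15.8 CPM (1.24 ± 0.25, edgeR adjusted p = 0.0525). In both cases the S. chamaejasme library lay above both untreated ones. When a library was left out, 2 to 5 genes passed in CD8 and 2 to 7 in CD4 cells, while calls over all genes reached 1390 (297 with all libraries) and 2441 (199), both without untreated replicate 1. In Treg-like cells 3 of 10 had an adjusted p under 0.05 with the borrowed spread, 2 higher and 1 lower, where 1.84% of all genes passed (1.16% higher and 0.686% lower). Cxcr6 was 42.2 CPM with S. chamaejasme, from 70 UMIs in 27 cells, against 3.88 and 12.7 CPM in untreated replicates, from 2 and 19 UMIs (log2 fold change 1.98 ± 0.41, edgeR adjusted p = 0.0205). Ccl5 was 162 CPM against 44.7 and 87.8 CPM (1.11 ± 0.26, edgeR adjusted p = 0.0408). Ccl4 was 3.62 CPM, from 6 UMIs in 4 cells, against 19.4 and 33.5 CPM, where 10 UMIs came from 1 cell and 50 UMIs from 3 cells (-3.04 ± 0.65, edgeR adjusted p = 0.0251). Without untreated replicate 2 the Cxcr6 fold change was 3.47 and the Ccl5 one 1.91, while Ccl4, at -2.35, no longer passed. None of the 3 passed with the coreceptor gates or with DESeq2, which gave 6 of the 10 genes no adjusted p.

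Between the combination and S. chamaejasme, again with 1 library and a borrowed spread on the S. chamaejasme side, 4 of 8 genes had an adjusted p under 0.05 in CD8 cells, all lower, where 2.01% of all genes passed (0.824% higher and 1.19% lower). When a library was left out, 1 to 6 did. The 4 were Cxcr6 (-1.56 ± 0.20, edgeR adjusted p = 0.00149), Ccl4 (-1.07 ± 0.18, edgeR adjusted p = 0.0074), Ccl5 (-1.04 ± 0.20, edgeR adjusted p = 0.0133) and Cxcr3 (-0.82 ± 0.19, edgeR adjusted p = 0.0469). Ccl5 was 4887 and 4726 CPM in the combination and 10777 CPM with S. chamaejasme; in cluster 7 alone, the values were 19598 and 17378 CPM against 16297 CPM, in the other order. Without combination replicate 1 the calls of Ccl4 (-0.93), Ccl5 (-1.08) and Cxcr3 (-0.60) ended, and without combination replicate 2 that of Ccl5 (-1.01). With edgeR none of 10 genes passed in CD4 cells (0.212% of all genes did, 0.0265% higher and 0.186% lower) or in Treg-like cells (0.562% did, 0.169% higher and 0.394% lower). In each class 7 had an unadjusted p under 0.05, as did 1355 of all 11310 genes in CD4 and 789 of 8892 in Treg-like cells. DESeq2 called 1 in CD4 cells, Ccr2, and 0 in Treg-like cells, where 7 had no adjusted p. When a library was left out, 4 to 7 genes passed in CD4 cells and 0 to 5 in Treg-like cells, while calls over all genes reached 1173 (24 with all libraries) and 479 (50), both without untreated replicate 1.

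Markers of other cell types were also counted in the class sums. In CD8 sums a list of 9 natural killer cell markers, of which Gzma, Eomes and Klrk1 are also T cell genes, totalled 309 to 507 CPM in the combination, 550 CPM with S. chamaejasme and 265 to 1133 CPM in untreated libraries, with 4 to 6 of 9 counted and Ncr1, Klra8 and Klra4 at 0 in all 5. Macrophage markers (8 genes) totalled 2.07 to 6.92 CPM in the combination, 4.54 CPM with S. chamaejasme and 4.62 to 7.60 CPM in untreated CD8 sums, with C1qc, Adgre1, Mrc1 and Ms4a7 at 0. Globin and other erythroid markers were 0 to 0.304 CPM in combination CD4 sums, 652 CPM with S. chamaejasme and 0 to 1.83 CPM in untreated sums. Several of the marker lists did not overlap between the combination and untreated CD4 sums. With 2 libraries on each side, such separation is common without any difference between groups. Its share over all genes is not given here. Macrophage markers totalled 3.43 to 4.81 CPM in the combination, 7.63 CPM with S. chamaejasme and 7.14 to 8.52 CPM in untreated CD4 sums. Mast cell and basophil markers totalled 4.93 to 7.21 CPM in the combination, 10.4 CPM with S. chamaejasme and 11.6 to 20.9 CPM in untreated sums. Gamma delta T markers totalled 5.48 to 6.93 CPM in the combination, 21.8 CPM with S. chamaejasme and 8.62 to 15.2 CPM in untreated sums. The CD8 coreceptor genes totalled 15.8 to 19.6 CPM in the combination, 24.005 CPM with S. chamaejasme and 24.2 to 41.6 CPM in untreated CD4 sums. Epithelial or tumour markers totalled 4.82 to 6.92 CPM in the combination, 20.8 CPM with S. chamaejasme and 10.8 CPM in both untreated CD8 sums. Type 2 innate lymphoid markers were lower in the combination in both classes and migratory dendritic markers higher, without overlap. The first of these lists holds Klrg1 and Areg, which were among the leading genes of Treg-like cluster 6. The second holds Ccr7, which was counted in the T-like classes. Totals of such lists therefore do not count other cells alone. The part of other cells in the treatment values was not tested.

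Other genes of the pathway were read from lists of 32 further chemokines, 16 further receptors and 26 signalling genes, with at most 4 named per list and direction and their log2 fold changes in brackets. Fewer than the full lists passed the count filter. Of all genes tested for clone size, 29.7% passed in CD4, 20.5% in CD8 and 5.28% in Treg-like cells, with medians of -0.01, 0.00 and -0.02, and the lists' counts stand beside those shares. With clone size in CD4 cells, 4 of 5 further receptors tested were higher and 1 was lower (median 1.79). The 4 were Ccr6 (2.31), Ccr9 (1.82), Cxcr5 (1.79) and Ccrl2 (1.14), of which Ccr6 is the Ccl20 receptor. Ccr7, the lymph node homing receptor, was the one that was lower (-2.18, edgeR adjusted p = 2.24e-09). In expanded CD8 cells Ccr7 (-3.73) was lower, of 2 further receptors tested (median -2.02). In expanded Treg-like cells Ccrl2 (1.21) was higher and Ccr7 (-2.004) was lower, of 3 (median -0.36). Cxcl10, a ligand of Cxcr3, was the further chemokine that was higher in expanded CD4 (1.32, 1 of 3 tested) and CD8 cells (0.83, 1 of 1 tested), and 0 of 2 passed in Treg-like cells with edgeR, as with DESeq2 and at an unadjusted p under 0.05.

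Of the signalling genes, 7 of 24 were higher and 2 lower in expanded CD8 cells (median 0.18), led by Rgs1 (1.55), Gng2 (1.41), Gnb1 (0.48) and Apbb1ip (0.47) and by Rgs10 (-1.03) and Grk6 (-0.55). In expanded CD4 cells 9 of 25 were higher and 3 lower (median 0.20), led by Gng2 (1.74), Rgs16 (1.57), Rgs1 (1.57) and Rap1a (0.53) and by Grk6 (-0.73), Rgs19 (-0.51) and Rgs14 (-0.44). In expanded Treg-like cells Rgs2 (0.80), Rgs1 (0.72) and Rgs16 (0.63) were higher and Rgs10 (-0.86) was lower, of 23 (median 0.02). DESeq2 did not call Cxcl10, Gnb1 or Grk6 in CD8 cells or Rgs16 in Treg-like cells. Rgs1, Rgs2, Rgs10, Rgs14, Rgs16 and Rgs19 encode regulators that shorten G protein signals, and Grk6 encodes a kinase of activated receptors.

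By lineage, 27.8% of all genes passed in CD8 against CD4 cells (median 0.01) and 32.9% in Treg against CD4 cells (median -0.02). Of the lists, 1 of 5 further receptors was higher in CD8 than in CD4 cells, Ccr9 (2.24), and 3 were lower, Ccr6 (-2.86), Cxcr5 (-2.31) and Ccrl2 (-1.24), with a median of -1.24. None of 2 further chemokines passed with edgeR or DESeq2, and 1 had an unadjusted p under 0.05, as did 3543 of all 9497 genes tested. The signalling genes split evenly, 7 of 25 higher, led by Pik3r5 (0.60), Pik3cg (0.45), Gng2 (0.34) and Rgs19 (0.26), and 7 lower, led by Rgs2 (-0.90), Rgs10 (-0.85), Rgs16 (-0.74) and Rap1a (-0.36). In Treg against CD4 cells 2 of 5 further receptors were higher, Ccrl2 (2.53) and Ccr6 (1.03), none was lower, and of 4 further chemokines Cxcl2 (2.14) and Cxcl10 (1.25) were higher. Of 25 signalling genes 7 were higher there, led by Rgs16 (2.12), Arrb1 (1.05), Rgs2 (1.0004) and Rgs1 (0.83), and 4 lower, Pik3r5 (-0.84), Rassf5 (-0.33), Arrb2 (-0.29) and Apbb1ip (-0.22). DESeq2 did not call Rgs16, Rgs19 or Pik3cg in CD8 against CD4 cells or Apbb1ip in Treg against CD4 cells.

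Between treatment groups, 0.212% to 6.78% of all genes passed, by contrast and class. For the combination against untreated libraries, the genes with an unadjusted p under 0.05 were 2082 of 9588 in CD8 cells. They were 3077 of 11310 in CD4 and 1679 of 8892 in Treg-like cells. For the combination against untreated libraries, none of 4 further receptors, 2 chemokines or 25 signalling genes passed with edgeR or DESeq2 in CD8 cells, and 2, 1 and 7 of them had an unadjusted p under 0.05 (receptor median 0.48). In CD4 cells none of 9 receptors and 6 chemokines passed with edgeR; 3 and 1 of them had an unadjusted p under 0.05, and DESeq2 called 1, Ccr9. Of 25 signalling genes 1 was lower there, Gng2 (-0.70, adjusted p = 0.0488). In Treg-like cells none of 7 further receptors passed with edgeR or DESeq2, and 3 had an unadjusted p under 0.05, while Ccl20, the Ccr6 ligand, was lower, 1 of 5 further chemokines (-1.27, adjusted p = 0.041). With S. chamaejasme against untreated libraries, Ccrl2 (1.26) was higher in Treg-like cells, as was Cxcl10 (1.39), and Ccl20 was lower (-1.97). In CD8 cells of that comparison Rgs1 was higher (0.85) and Rgs16 lower (-1.85). Between the combination and S. chamaejasme, Ccr7 was higher in CD8 cells (1.45), and Rgs1 (-1.39) and Gng2 (-1.16) were lower. Of these calls with S. chamaejasme, DESeq2 called Ccrl2 in Treg-like cells, Rgs1 in both CD8 comparisons and Gng2, but not Cxcl10, Ccl20, Rgs16 or Ccr7, nor Ccl20 for the combination in Treg-like cells. In the difference of the combination effect between CD8 and CD4 cells, where 0.553% of all genes passed, Ccr9 (1.06, 1 of 6 receptors) and Rgs1 (0.45, 1 of 25 signalling genes) passed with edgeR and neither with DESeq2.

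The genes whose levels ran most like each member were found by the correlation of log2(CPM + 10) over the 15 sums of 3 classes and 5 libraries, among 4877 genes of at least 20 CPM; sums of 1 library share its cells and depth, and these values are descriptions. The closest gene was Plac8 (r = 0.907) for Ccl3, then Klrc1 and Racgap1. It was Nkg7 (r = 0.946) for Ccl4, then Cd8a and Gzmk. For the other chemokines it was Nkg7 (r = 0.984) for Ccl5, then Klrc1 and Cd8a, and Klrc1 (r = 0.969) for Xcl1, then Klk8 and Cd8a. Nkg7, Klrc1 and Cd8a, genes of cytotoxic or CD8 cells, each stood among the nearest 3 of more than 1 chemokine. Cd8a was also used to name the CD8 class, so any gene high in CD8 sums will correlate with it over these classes. Among the receptors it was Idh3a (r = 0.953) for Cxcr3, then Epsti1 and Nkg7, and Acpp (r = 0.928) for Cxcr6, then Ifng and Actn2; Ifng encodes interferon gamma. It was Lztfl1 (r = 0.963) for Ccr2, then Mdfic and Glrx. For the receptors high in Treg-like cells it was Heg1 (r = 0.973) for Ccr4, then Stx11 and Tnfrsf4, and Gata3 (r = 0.990) for Ccr8, then Lrp10 and Tank. Tnfrsf4 was also used to name the Treg-like class, so a gene high in Treg-like sums will tend to correlate with it over these classes. For Cxcr4 the closest gene was Fem1b (r = 0.952), then Kdm5b and Xbp1.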

How the data were processed

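Droplet 5′ gene expression and TCR libraries came from T cells of mouse colorectal carcinoma. Per the submitters' processing notes, Cell Ranger 3.1.0, STAR and mm10 were used; the deposited tables hold UMI counts per gene and barcode, 97967927 UMIs in the 5 RNA libraries (8763821 to 27759543 each), and the authors' clonotype calls. The sources used here give no counting strand. From these counts, barcodes under 300 genes or over 10% mitochondrial counts were dropped, leaving 21549. Scrublet's automatic threshold marked 17 doublets, so the top scores (0.8% per 1000 cells, 799) and cells with at least 2 TRB chains (618) were removed, 1310 in all.

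Cells were clustered in scanpy 1.11.5 (Python 3.11.15, leidenalg 0.10.2) without the 10 genes (2000 variable genes, 30 components, 15 neighbours, resolution 1, seed 0), and clusters were named from marker lists with thresholds set after the clusters were seen. TCR tables held 18274 barcodes, 18249 of them in the RNA tables. Counts were summed per library and class and tested with edgeR 4.0.16 in R 4.3.3 (filterByExpr, TMM, quasi-likelihood test, Benjamini-Hochberg threshold 0.05 over all genes tested). Treatment fits had 2 residual degrees of freedom. Clone and lineage fits had the library as a block, because both sides come from the same library. DESeq2 1.42.0 was an alternative, as were RLE factors, no count filter, coreceptor gates, clones by TRB CDR3 and leaving out each library. The tests were checked on simulated data, but the settings and outcome are not given here, so this check lends no weight to the calls. Shares use cells thinned to 2000 UMIs, and intervals and floors cover counting error only.

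The members and lists were chosen with earlier results of these data known. Named are all 10 genes, list genes past the threshold (up to 4 per list and direction) and the 3 genes most like each member. Comparisons of single clusters for clone size, sums without the top cell of each chemokine gene and sums without cluster 8 were added after seeing the data. A withheld item is not reported here.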

Additional observations from a re-analysis of the deposited data

Results flagged for a closer look

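A few effects of the combination over untreated libraries differed between classes in the interaction test with edgeR over 5 libraries. The Ccl3 effect was lower in CD8 T-like than in CD4 conventional cells by a log2 difference of -3.12 ± 0.65 (SE, adjusted p = 0.0144), and the Ccl4 effect by -2.27 ± 0.48 (SE, adjusted p = 0.0157). In combination replicate 1, 1 CD4 cell held 874 of 900 Ccl4 UMIs. Without the top cell of each chemokine gene in each sum, the differences were -1.13 and 0.39. The Ccr4 effect was higher in Treg-like than in CD4 conventional cells by 1.72 ± 0.26 (SE, adjusted p = 0.00639), and in each class the combination libraries did not overlap the untreated ones. With 2 libraries on each side, such separation is common without any difference between groups.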

How the results depend on the processing

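A set of 55 values for genes was refitted under alternative settings, 618 refits in all. These were values that passed in the reported fit, in a single cluster or in a setting added after seeing the data. Ccl3 and Ccl4 for the combination over untreated in CD4 cells were also among them. Values that passed only under other alternatives were left out, so passes under an alternative are not fully counted. Of the refits, 503 kept their direction and side of the threshold, whether they passed or not, and 56 kept the direction but no longer passed. Another 36 passed only under the alternative and 23 turned round, and the cause was not tested. Calls over all genes moved with the setting too. In the Treg minus CD4 difference they were 49 in the reported fit and 210 without the count filter. The share of all genes called is not given for each setting below. The counts that follow therefore do not set the 10 genes apart from a shift in all calls. In counts of the 10 genes called, clone size in CD8 cells fell to 1 (of 8) in cluster 7 alone, and in CD4 cells (6) to 0 in cluster 1 and 0 in cluster 4 alone; in Treg-like cells (1) it was 2 with clones by TRB CDR3. For the combination against untreated, CD4 cells (2) gave 0 in cluster 0, 0 in cluster 1, 1 in cluster 2, 1 in cluster 3 and 0 in cluster 4 alone, 8 without the count filter, 4 with coreceptor gates and 4 without cluster 8. CD8 cells (2) gave 1 in cluster 7 alone, 1 with DESeq2 and 1 without the top cell of each chemokine gene; Treg-like cells (0) gave 2 with the members kept in the clustering (Ccl4 and Cxcr3) and 1 without the filter. For S. chamaejasme against untreated, CD4 cells (0) gave 1 with DESeq2 and 3 without the filter, CD8 cells (0) gave 1 with DESeq2, 1 with RLE factors and 4 without the filter, and Treg-like cells (3) gave 0 with DESeq2 and 0 with the gates. For the combination against S. chamaejasme, CD4 cells (0) gave 1 with DESeq2 and 7 without the filter, and Treg-like cells (0) gave 4 without the filter and 3 with the gates. The difference CD8 minus CD4 (2) gave 0 with DESeq2, 1 with the gates and 0 without the top cells, and Treg minus CD4 (1) gave 0 with DESeq2 (which gave 5 of 10 genes no adjusted p, Ccr4 among them), 7 without the filter, 2 with the gates and 3 without the top cells.

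Leaving out each library in turn gave ranges of 2 to 6 (CD4), 1 to 5 (CD8) and 0 to 2 (Treg-like) genes for the combination against untreated, 2 to 7, 2 to 5 and 3 to 6 for S. chamaejasme against untreated, and 4 to 7, 1 to 6 and 0 to 5 for the combination against S. chamaejasme. The differences gave 1 to 5 (CD8 minus CD4) and 1 to 4 (Treg minus CD4), clone size 6 to 8, 7 to 8 and 1 to 2, and lineage 9 to 10 (CD8) and 5 to 8 (Treg). A fit without a library leaves some groups with 1 sample, which is assumed to vary like the others. Calls over all genes then reached 2441 (CD4, 199 with all libraries), 1390 (CD8, 297) and 889 (Treg-like, 164) for S. chamaejasme against untreated and 1173 (24), 1108 (193) and 479 (50) for the combination against S. chamaejasme, all highest without untreated replicate 1.

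Values that turned round were the following. With clone size in CD4 cells, Ccl5 was -1.58 in cluster 1 and -0.091 in cluster 4, and Cxcr3 was -0.041 in cluster 4. In CD8 cluster 7, Ccl3 was -0.072, Ccl4 -0.13 and Xcl1 -0.32, and Xcl1 was -0.16 with the gates. For the combination against untreated in CD4 cells, Ccl4 was -0.89 without the top cells, Cxcr6 0.98 in cluster 1 and 0.12 in cluster 4, Ccr4 0.30 in cluster 1, Ccr2 0.57 in cluster 4, and Cxcr3 0.35 in cluster 1 and 0.56 in cluster 4. Ccl5 was 0.87 in cluster 1, 0.85 in cluster 4, 2.04 with the gates and -1.38 to 0.022 when a library was left out (0.022 without untreated replicate 1). In CD8 cells Xcl1 was 0.80 in cluster 5, Ccl5 0.43 in cluster 7 and Cxcr4 -0.71 to 0.066 when a library was left out (0.066 without untreated replicate 2). The Ccl4 difference CD8 minus CD4 was 0.39 without the top cells, and Ccl5 in Treg against CD4 cells was 0.41 with the classes.

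Over all genes, calls for the combination against untreated in CD8 cells went between 137 with DESeq2 and 1599 without untreated replicate 2 (544 in the reported fit), and in CD4 cells between 395 and 2524 (767). Without the replicate block, lineage calls fell to 992 (2639) and 1830 (2790) and clone calls in Treg-like cells to 136 (313); of the 10 genes, the calls of Cxcr6 (0.78) and Cxcr4 (-0.55) in CD8 against CD4, Cxcr3 (0.73) and Ccl5 (-1.17) in Treg against CD4 and Xcl1 (0.90) with clone size in CD8 ended. No paired analysis was possible because replicate numbers of the treatment groups came from accession order and pair nothing. DESeq2 gave no adjusted p to some members, 6 in Treg-like cells for S. chamaejasme against untreated and 7 in Treg-like cells for the combination against S. chamaejasme. Of 30 shares of cells with a UMI by class, 16 moved by more than 1 SD on thinning.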
